A study of Mus musculus with 4 samples.

Results

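The NADPH oxidases are membrane enzymes that pass electrons from NADPH to oxygen and so make superoxide. The phagocyte enzyme NOX2 is built from a membrane pair, the catalytic chain gp91phox (gene Cybb) and its stabilising partner p22phox (Cyba), and from cytosolic proteins that join the pair on activation, among them the organiser p47phox (Ncf1), p40phox (Ncf4), which binds a phosphoinositide on phagosome membranes, and a Rac GTPase (Rac1 or Rac2). NOX1 and NOX4 are catalytic chains of other tissues, known from colon epithelium, vascular smooth muscle and kidney. Angiotensin II (Ang II), the hormone peptide that raises blood pressure, is known to activate these oxidases in vascular cells.

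Described here are 8 genes of these enzymes, Cybb, Cyba, Ncf1, Ncf4, Rac1, Rac2, Nox1 and Nox4, chosen by name as catalytic and regulatory subunits; each had 1 row among the 55401 gene models of the deposited tables. The cells were group 2 innate lymphoid cells (ILC2s), tissue lymphocytes without antigen receptors, purified from lungs of C57BL/6 mice and kept for 6 h with IL-33 plus Ang II or with IL-33 alone. Each group has 2 libraries of 500 cells. IL-33, an alarmin that activates ILC2s, was thus in every library, and by the labels the groups differ by Ang II. The labels name no genetic change, give no dose or animal age, and do not say whether libraries of a group came from separate mice or cultures. The title of the series asks how Ang II acts on ILC2 responses through its receptor AT1a.

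Values are FPKM, which are scaled to transcript length, so levels can be set beside each other between genes. They sum to between 394808 and 431014 per library, and the depth is not given in the sources used here. Over the 9215 genes tested, the Ang II libraries differed by a median of 1.22 on the log2(FPKM + 1) scale and the IL-33 libraries by 0.05. The rank correlation (Spearman) was 0.475 between the Ang II libraries and 0.989 between the IL-33 libraries. Between an Ang II and an IL-33 library it was 0.490 to 0.499. By rank, the Ang II libraries were thus no more alike than either was to an IL-33 library. Set against the counting noise, which was estimated from how often low genes were listed at 0 in 1 IL-33 library, the spread was 16.8 times that noise for the Ang II libraries and 1.12 times for the IL-33 libraries. That noise came from the IL-33 pair itself, so its value near 1 was partly built in, and by root mean square the pair stood at 2.20 times the noise. It therefore does not show that the pair is 1 library. The pair was counted as 1 sample, a choice on which the call of Ncf4 below depends: the fits set n = 2 Ang II libraries against n = 1, with 1 residual degree of freedom, and they measure the spread between these libraries, which may be technical.

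Of 12 ILC2 markers, 11 were tested: in both libraries with Ang II 3 of them lay above IL-33 and 1 below it, beside 24.4% and 33.5% of all genes tested. Arg1 (602 and 225 FPKM with IL-33 plus Ang II, against 533 and 542 FPKM with IL-33) and Icos (264 and 383 FPKM against 357 and 348 FPKM) were the most abundant, Gata3, Rora and Il1rl1 lay between 43.5 and 185 FPKM in every library, and Il5 was listed at 0 throughout. Others differed more between groups or Ang II libraries: Areg stood at 217 and 344 FPKM against 7.38 and 7.51 FPKM, Il13 at 16.3 and 0.53 FPKM against 70.1 and 73.7 FPKM, and Il17rb at 66.4 and 16.4 FPKM against 43.4 and 44.9 FPKM. Transcripts of other cells were present too: the summed red blood cell markers, led by the globin genes Hba-a2 and Hba-a1, were 3832 and 1592 FPKM with IL-33 plus Ang II, against 25146 and 24943 FPKM with IL-33, and the epithelial, endothelial and stromal markers, led by Scgb1a1 and Sftpc, 81.7 and 199 FPKM against 399 and 388 FPKM.

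In both groups the subunit genes split into an abundant set and a set at or near 0. Cyba was the most abundant in every library, and it, Rac2, Ncf4 and Rac1 were the 4 members that passed the filter (an average of 1 FPKM or more). The other 4 members, Cybb, Ncf1, Nox1 and Nox4, were below 1 FPKM in every library and were not tested. The plot of subunit levels by library shows the split and the shift of Ncf4.

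**Figure D1:**
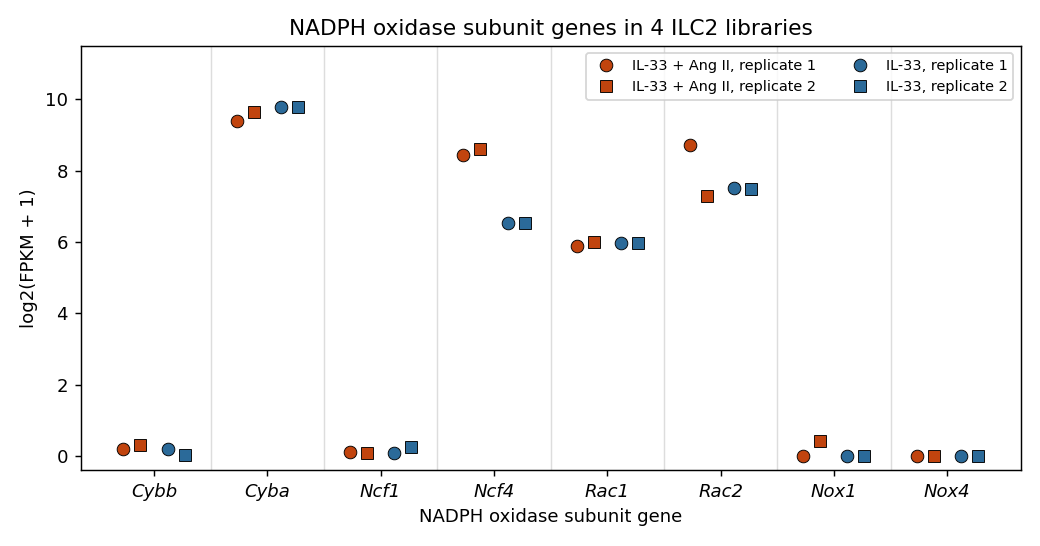
Level of each subunit gene, as log2(FPKM + 1), in the 2 libraries with IL-33 plus Ang II (orange) and the 2 with IL-33 (blue), 1 point per library. Ncf4 reached 349 and 389 FPKM with Ang II and 91.0 and 90.9 FPKM without it, while Cybb, Ncf1, Nox1 and Nox4 lay below 1 FPKM everywhere.

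The membrane pair is shown first through its promoters, because the 2 chains are needed together in the enzyme and yet stood far apart in level. The sequences are the 250 bases before the RefSeq start of each gene (GRCm38.p6), read 5′ to 3′ on the gene's own strand. Capitals mark matches, on either strand, to the GC box GGGCGG, the CCAAT box and the letters GATAA, and none of the marked matches overlap. The Cyba window is chr8:122432941-122433190 and the Cybb window chrX:9469325-9469574, both on the minus strand. The Cybb window lies inside the longer GENCODE model of that gene (9435252 to 9487771).
Cyba: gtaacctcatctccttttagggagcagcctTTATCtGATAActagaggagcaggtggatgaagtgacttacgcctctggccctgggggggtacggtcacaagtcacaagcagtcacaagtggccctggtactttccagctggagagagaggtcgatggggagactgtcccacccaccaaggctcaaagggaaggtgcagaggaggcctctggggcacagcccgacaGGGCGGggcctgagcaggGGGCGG
Cybb: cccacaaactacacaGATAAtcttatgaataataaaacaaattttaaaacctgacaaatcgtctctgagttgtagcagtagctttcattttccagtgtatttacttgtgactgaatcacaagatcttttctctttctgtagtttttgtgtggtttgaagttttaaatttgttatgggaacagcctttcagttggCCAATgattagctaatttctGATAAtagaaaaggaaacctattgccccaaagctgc
The Cyba window is 60.0% G and C and the Cybb window 34.0%, beside a median of 52.4% over 32851 RefSeq promoter windows of the same length, of which 72.1% lie below Cyba and 3.87% below Cybb. Cyba has 2 GC boxes and Cybb has 0, and 32.7% of all windows hold at least 1. The other members with an entry all lay below 1 FPKM. Among them Nox4 has 67.2% G and C and 1 GC box, Ncf1 54.4% and 1, and Nox1 38.0% and 0. A link of these features to level was not tested. Cybb has 1 CCAAT box and Cyba 0, and 33.8% of windows hold at least 1. Both have 2 GATAA matches, a pattern found in 22.6% of windows, and neither has a match to TATAAA (12.4% of windows) or GAGGAA (23.3%). These matches are letters in a window and say nothing of which factors bind there.

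Cyba (ENSMUSG00000006519, chromosome 8, 122424776 to 122432930, minus strand, mm10) stood at 678 and 801 FPKM with IL-33 plus Ang II, against 888 and 876 FPKM with IL-33. Both Ang II values lay below both IL-33 values. The difference was not far above its standard error, with 1 residual degree of freedom (limma log2 fold change -0.26 with SE 0.20, adjusted p = 0.775). Its mean level exceeded that of 99.3% of genes with IL-33 plus Ang II and 99.5% with IL-33.

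Cybb (ENSMUSG00000015340), the catalytic partner of that chain, stood at 0.14 and 0.24 FPKM with IL-33 plus Ang II, against 0.15 and 0.01 FPKM with IL-33. The groups overlap, and 1 of the values is at the last of the 2 decimals of the file. Cyba was thus at least 3339 times as abundant per length as Cybb in each library. Nox1 (ENSMUSG00000031257) was listed at 0 and 0.33 FPKM with IL-33 plus Ang II, against 0 in both IL-33 libraries. Within its gene model Nox1 overlaps Cstf2 on the opposite strand, which stood at 8.76 and 0.24 FPKM with IL-33 plus Ang II and at 6.33 and 6.83 FPKM with IL-33, and the labels do not say that reads were counted by strand. Nox4 (ENSMUSG00000030562) was listed at 0 in all 4 libraries. A value of 0 in these tables does not show that a transcript was absent.

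Among the cytosolic subunits, Ncf4 (ENSMUSG00000071715, chromosome 15, 78244801 to 78262580, plus strand, mm10) differed most between the groups. It stood at 349 and 389 FPKM with IL-33 plus Ang II, against 91.0 and 90.9 FPKM with IL-33. The Ang II libraries lay close together and far above the IL-33 libraries, at 369 ± 28.3 FPKM (SD, n = 2) against a mean of 91.0 FPKM (n = 1), or 4.06 times as high. The log2 fold change was 2.01 (SE 0.20), with an unadjusted p of 0.0134 and an adjusted p of 0.174 (limma, two-sided, Benjamini-Hochberg over 9215 genes), so the difference did not pass the threshold of 0.05. No gene did: limma called 0 genes (0.0% of those tested), with 257 higher (2.79%) and 996 lower (10.8%) at an unadjusted p under 0.05. Ncf4 was the only member of the 4 tested to fall under that unadjusted threshold. When the IL-33 libraries were counted as 2 replicates its adjusted p was 0.0082, in a fit that called 1547 genes, and leaving out either Ang II library left its log2 fold change at 1.93 and 2.08.

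The Ang II libraries differed by 0.16 for Ncf4 on the log2(FPKM + 1) scale, a smaller difference than for most genes. The same held for Rac1 (0.11) and Cyba (0.24). Of all genes tested 15.2% differed by less than Ncf4, and of the 2646 genes averaging 20 FPKM or more 12.7% did. Rises of the size seen for Ncf4 were found in other genes too, and falls of that size were not counted. In both Ang II libraries 94 of those 2646 (3.55%) stood at least as far above IL-33 as the smaller of the Ncf4 values. Among all 9215 genes 454 did so (4.93%), and by mean log2 fold change Ncf4 ranked number 1065 from the top. Ncf4 ranked above 98.2% of genes tested by its level with IL-33 plus Ang II and above 91.5% with IL-33.

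Ncf1 (ENSMUSG00000015950), the organiser, stood at 0.09 and 0.06 FPKM with IL-33 plus Ang II, against 0.06 and 0.18 FPKM with IL-33. These groups overlap near the floor of the file. Its model overlaps Gtf2ird2 on the opposite strand, which was at 0.03 and 3.09 FPKM with IL-33 plus Ang II and listed at 0 with IL-33. Ncf1 and Cybb were thus at or near 0 in the same libraries in which Ncf4 was abundant.

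The Rac GTPases, switches that also steer actin and cell movement, behaved differently from each other between the Ang II libraries. Rac1 (ENSMUSG00000001847, chromosome 5, 143503634 to 143528036, minus strand), which most cells express, stood at 58.5 and 63.4 FPKM with IL-33 plus Ang II, against 61.5 and 62.2 FPKM with IL-33. The 4 values lie within a range of a few FPKM and the groups overlap (limma log2 fold change -0.02 with SE 0.27, adjusted p = 0.974), and the sign of this difference is not settled: it was 0.05 when libraries were scaled to the same FPKM sum. Rac2 (ENSMUSG00000033220, chromosome 15, 78559167 to 78572783, minus strand), the form of blood cells, stood at 425 and 155 FPKM with IL-33 plus Ang II, against 183 and 179 FPKM with IL-33. Ang II replicate 1 was above and replicate 2 below the IL-33 values, so Rac2 differed more between the Ang II libraries than between the groups (limma log2 fold change 0.50 with SE 0.95, adjusted p = 0.832). Taken alone, Ang II replicate 1 gave a log2 fold change of 1.23 and replicate 2 gave -0.23.

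Rac2 exceeded Rac1 in every library. The ratio of Rac2 to Rac1, which does not depend on the scaling of a library, was 7.26 and 2.44 with IL-33 plus Ang II, against 2.98 and 2.87 with IL-33. The Ang II ratios lie on either side of the IL-33 ratios (log2 difference 0.52, exact permutation test, two-sided, p = 1). This test and those of the next ratios, unlike the fits, take the IL-33 libraries as separate samples (2 against 2), for which 0.33 is the smallest p possible. Ratios against Cybb rest on its values of 0.14 and 0.24 FPKM with IL-33 plus Ang II and 0.15 and 0.01 FPKM with IL-33. With the value of 0.01 FPKM, the ratio of Cyba to Cybb was 87646 in IL-33 replicate 2, against 5921 in IL-33 replicate 1. The log2 ratio differed by -2.50 for Cyba to Cybb (exact permutation p = 0.33), by -2.74 for Ncf1 to Cybb (exact permutation p = 0.667) and by -0.22 for Ncf4 to Cybb (exact permutation p = 1), IL-33 plus Ang II minus IL-33.

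Of the 4 members tested, 1 (Ncf4) stood higher in both Ang II libraries than in both IL-33 libraries, where 24.4% of all genes tested did, and 1 (Cyba) stood lower in both, where 33.5% did. These shares are near the background, and 4 genes are too few to show whether the subunits stand apart as a group. Their median log2 fold change was 0.24, beside -0.004 over all genes tested, and its sign rests on 1 library: it was -0.05 without Ang II replicate 1 and 0.57 without replicate 2. The make-up of the set differed with Ncf4: of the summed FPKM of the 8 members (1511 and 1409 with IL-33 plus Ang II, against 1224 and 1208 with IL-33), Ncf4 made up 23.1% and 27.6% with IL-33 plus Ang II, against 7.44% and 7.52% with IL-33. Cyba made up 44.9% and 56.9%, against 72.5% in both IL-33 libraries. With IL-33 plus Ang II, Cyba was the highest and Rac1 the lowest of the 4, while Ncf4 and Rac2 changed places between the libraries, and the gap between their means (369 ± 28.3 and 290 ± 191 FPKM, SD, n = 2) was within the spread of Rac2. With IL-33 the order was Cyba, Rac2, Ncf4 and Rac1 in both libraries. The pair was counted as 1 sample, so it gives no spread between samples to set this order against.

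**Figure D2:**
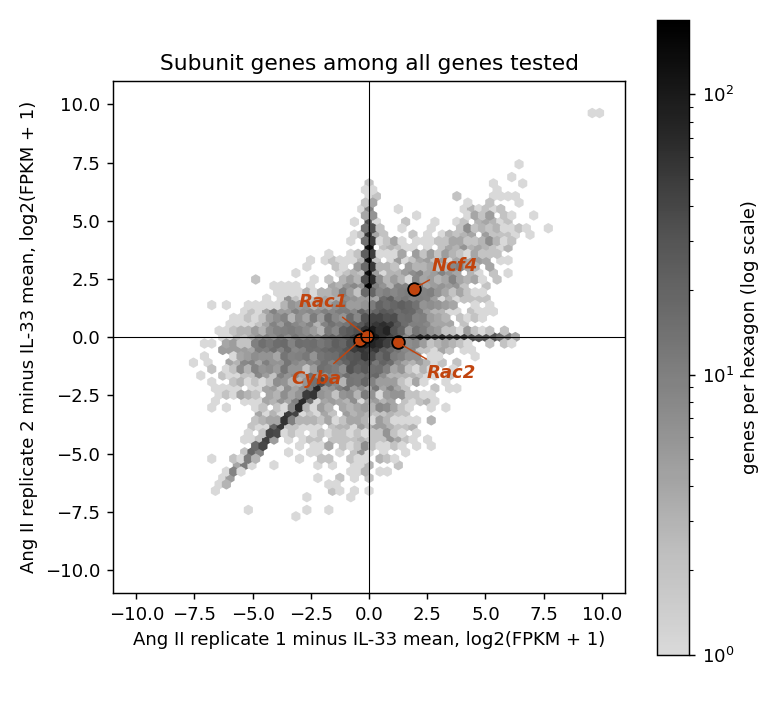
Difference of each Ang II library from the IL-33 mean on the log2(FPKM + 1) scale, replicate 1 on the horizontal and replicate 2 on the vertical axis, for the 9215 genes tested (grey, number of genes per hexagon on a log scale) and the 4 subunit genes tested (orange). Both axes share the IL-33 mean, which by itself draws points along the diagonal; Ncf4 lies at 1.93 and 2.08, Rac2 at 1.23 and -0.23, and Cyba and Rac1 near the origin.

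Ncf4 and Rac2 both lie on chromosome 15, with 297 kb between them and 10 protein-coding genes in that interval. The interval was looked at after the values of Ncf4 were known. Of the 10 genes, 3 passed the filter. Il2rb, which encodes the receptor beta chain for IL-2 and IL-15, stood at 316 and 309 FPKM with IL-33 plus Ang II, against 303 and 304 FPKM with IL-33 (limma log2 fold change 0.04 with SE 0.16, adjusted p = 0.911). Il2rb, the abundant gene of the interval, did not show the shift of Ncf4. Whether genes of the interval are regulated together was not tested. Csf2rb2, a receptor chain gene next to Ncf4, was listed at 0 and at 17.2 FPKM with IL-33 plus Ang II, against 0.04 FPKM in both IL-33 libraries. Mpst, the gene of a sulfurtransferase, was at 0 and 4.96 FPKM with IL-33 plus Ang II and at 0.27 and 0.11 FPKM with IL-33. Csf2rb, which encodes the shared beta chain of the IL-3, IL-5 and GM-CSF receptors, reached 1.76 FPKM in Ang II replicate 2 and stood below 0.1 FPKM elsewhere, and 4 of the other genes were listed at 0 in all 4 libraries.

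**Figure D3:**
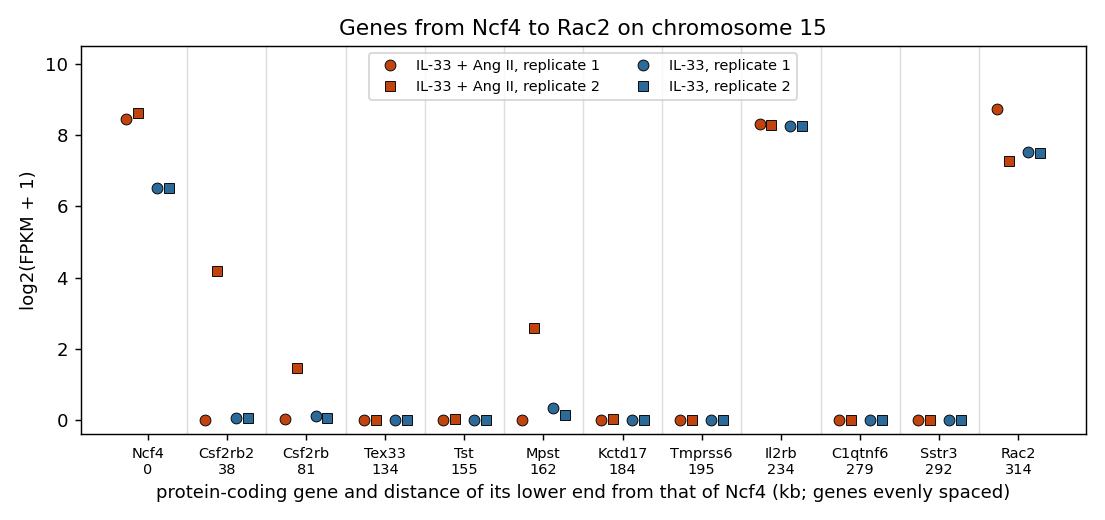
Level, as log2(FPKM + 1), of the protein-coding genes from Ncf4 to Rac2 in their order on the chromosome, with the distance of each from the start of Ncf4 in kb (genes are evenly spaced, not to scale). Orange points are the IL-33 plus Ang II libraries and blue points the IL-33 libraries; Il2rb stood between 303 and 316 FPKM in all 4 libraries.

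By level over the 4 libraries, the protein-coding genes closest to Ncf4, out of 7200 compared, were Mien1, Samhd1 and Fos. Their largest difference from Ncf4 in any of the 4 libraries was 0.47, 0.67 and 0.68 on the log2(FPKM + 1) scale. Fos stood at 221 and 242 FPKM with IL-33 plus Ang II, against 99.5 and 100.1 FPKM with IL-33, and Mien1 at 317 and 309 FPKM against 127 and 114 FPKM. For Cyba the closest were Cox6a1, Cd53 and Ccr8, with largest differences of 0.23, 0.23 and 0.26. With 4 libraries such likeness is a description of level.

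Of 11 names listed as other oxidase genes, 10 were found, and 2 passed the filter. Cybc1, which encodes a chaperone that Cybb and Cyba need for their assembly, stood at 23.3 and 0.79 FPKM with IL-33 plus Ang II, against 55.7 and 59.5 FPKM with IL-33 (limma log2 fold change -3.15 with SE 2.46, adjusted p = 0.775). Hvcn1, the gene of the proton channel that balances the charge the oxidase moves, stood at 0.02 and 11.6 FPKM with IL-33 plus Ang II, against 17.5 and 17.9 FPKM with IL-33. Cybc1 and Hvcn1 were lower in both Ang II libraries, as were 33.5% of all genes tested, but by very different amounts in the 2 libraries. The remaining 8, the catalytic genes Nox3, Duox1 and Duox2, the maturation factors Duoxa1 and Duoxa2, the NOX1 organiser and activator Noxo1 and Noxa1, and Rac3, were listed at 0 in all 4 libraries. In this list 0 genes passed the adjusted threshold.

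Of 20 regulators of Rac listed, 16 were tested, and 0 passed the adjusted threshold. Both Ang II values lay above IL-33 for 7 and below it for 5, beside 24.4% and 33.5% of all genes tested. The filter fixed much of that count: all 7 averaged below 1 FPKM with IL-33, and 2 of the 5 below 1 FPKM with IL-33 plus Ang II, so they passed only through the group where they are high and had to differ. The same holds for 971 of the 2252 genes higher in both and 1167 of the 3085 lower in both, so these shares and counts are descriptions. Arhgdib and Arhgdia, which encode the inhibitors that hold Rac in the cytosol, were the most abundant. Arhgdib stood at 420 and 551 FPKM with IL-33 plus Ang II, against 564 and 778 FPKM with IL-33, and Arhgdia at 192 and 68.9 FPKM against 139 and 142 FPKM. Def6, an exchange factor for Rac in lymphocytes, stood at 63.0 and 13.8 FPKM with IL-33 plus Ang II and at 0 in each IL-33 library. Pak2, a kinase bound by active Rac, stood at 0.06 and 11.7 FPKM with IL-33 plus Ang II, against 21.1 and 20.3 FPKM with IL-33. Outside the rule for named genes and chosen after its values were seen, Vav1, the haematopoietic exchange factor for Rac, stood at 37.7 and 12.9 FPKM with IL-33 plus Ang II, against 0.03 and 0.10 FPKM with IL-33. Def6 and Vav1 are among the 7 that passed the filter only through the Ang II libraries.

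Of 20 kinases and lipid enzymes upstream of the oxidase, 11 were tested, and 0 passed the adjusted threshold. Both Ang II values lay above IL-33 for 3 and below it for 7, beside 24.4% and 33.5% of all genes tested. Of these 3 and 7, 2 and 5 passed the filter only through the group where they are high. Lyn, a Src family kinase, stood at 52.3 and 17.3 FPKM with IL-33 plus Ang II, against 2.84 and 2.61 FPKM with IL-33. Rap1a, a small GTPase that copurifies with the NOX2 membrane pair, stood at 22.1 and 12.4 FPKM against 19.2 and 19.95 FPKM, and Prkch, a protein kinase C gene, at 2.40 and 12.8 FPKM against 19.3 and 20.9 FPKM. Prkci, Mapk14, Pik3cg and Pla2g4a were the 4 at an unadjusted p under 0.05 by limma, all lower, beside 10.8% of all genes tested. Apart from Prkci they were named after their values were seen. All of them lay near 0 in the Ang II libraries, so the spread between those libraries, which the fit measures, was small. Their small p-values were thus partly built in and are no support for a difference. Prkci, which encodes an atypical protein kinase C, stood at 0.02 and 0 FPKM with IL-33 plus Ang II, against 13.7 and 13.4 FPKM with IL-33. Mapk14, the gene of the stress kinase p38 alpha, stood at 0.10 and 0.12 FPKM with IL-33 plus Ang II and differed within the IL-33 pair, at 13.1 and 6.43 FPKM. Pik3cg and Pla2g4a, which encode a phosphoinositide kinase and a phospholipase A of leukocytes, were at or below 0.12 FPKM in the Ang II libraries and between 7.93 and 9.12 FPKM with IL-33. Each of the 4 had an adjusted p of 0.174 by limma, and each passed the filter only through the IL-33 libraries.

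Of 14 genes that remove superoxide and peroxide, 13 were tested, with both Ang II values above IL-33 for 3 and below it for 7, beside 24.4% and 33.5% of all genes tested, and 0 past the adjusted threshold. The median log2 fold change was -0.21, beside -0.004 over all genes tested. The most abundant were Prdx1, a peroxiredoxin gene (451 and 266 FPKM with IL-33 plus Ang II, against 745 and 726 FPKM with IL-33), Gpx4, whose product reduces lipid peroxides (641 and 555 FPKM against 466 and 425 FPKM), Txn1, the thioredoxin gene (521 and 326 FPKM against 597 and 575 FPKM), and Prdx5 (377 and 220 FPKM against 342 and 325 FPKM). Prdx1 and Txn1 were lower and Gpx4 higher in both Ang II libraries, and Prdx5 overlapped. Cat, the catalase gene, chosen after its values were seen, stood at 0.50 and 2.36 FPKM with IL-33 plus Ang II, against 46.3 and 48.0 FPKM with IL-33 (adjusted p = 0.386 by limma).

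**Figure D4:**
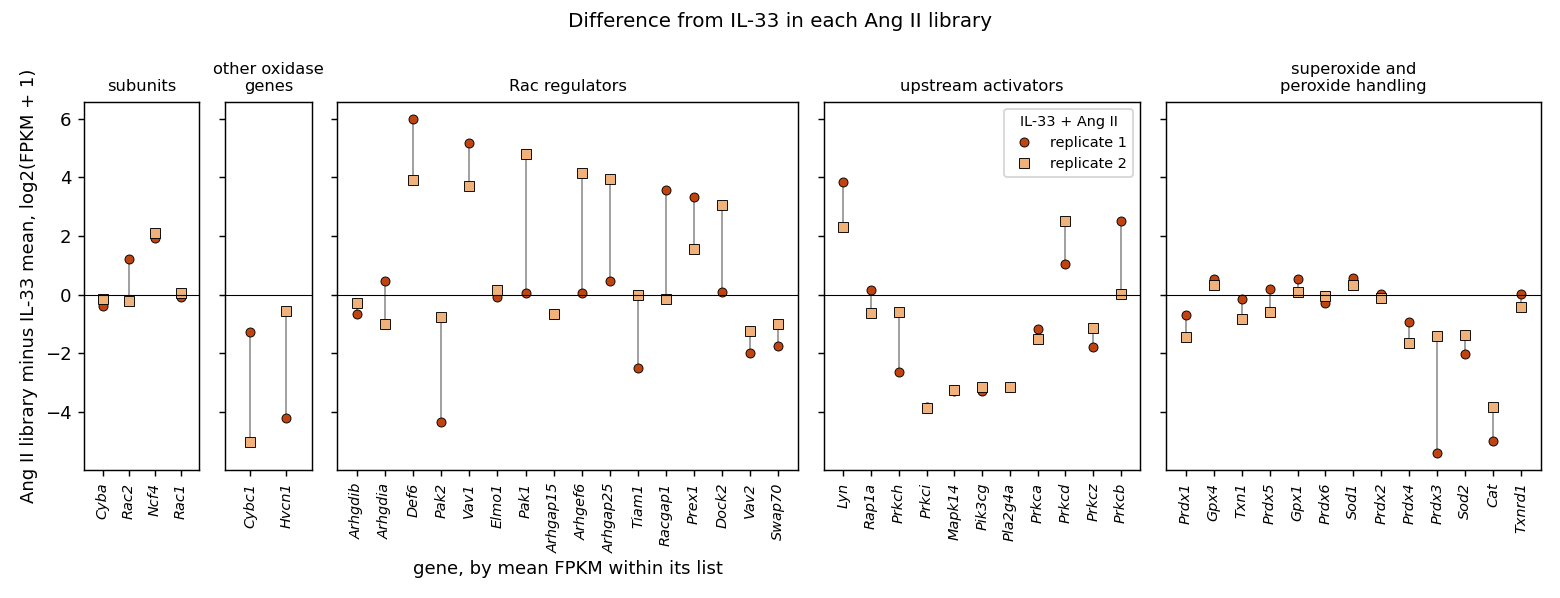
Difference of each Ang II library from the IL-33 mean on the log2(FPKM + 1) scale for the subunit genes and 4 related lists, circles for replicate 1 and squares for replicate 2, joined by a line; genes are ordered within a list by mean FPKM. For Ncf4 the points lie at 1.93 and 2.08, while those of many Rac regulators, such as Pak2, lie far apart.

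NOX2 subunits are best known from phagocytes and B cells, so transcripts of those cells were measured beside Ncf4 and Cyba. In bulk samples, fewer cells of a type and less RNA per cell cannot be told apart. Of 16 macrophage, monocyte and dendritic cell markers, 10 were tested, with both Ang II values above IL-33 for 4 and below it for 5, where 24.4% and 33.5% of all genes tested lay, and the list summed to 2323 and 1243 FPKM with IL-33 plus Ang II, against 2354 and 2312 FPKM with IL-33. Itgax and Flt3 were listed at 0 in all 4 libraries, and Csf1r stood at 0.10 to 0.13 FPKM, while Lyz2 stood at 1016 and 683 FPKM against 1700 and 1668 FPKM and Chil3 at 696 and 158 FPKM against 212 and 210 FPKM. Of the 4 markers higher in both, Marco stood at 191 and 23.2 FPKM with IL-33 plus Ang II and was listed at 0 with IL-33. Ctss stood at 259 and 247 FPKM against 184 and 177 FPKM, and Ccr2 at 28.6 and 33.5 FPKM against 21.8 and 21.9 FPKM. Fcgr1 was at 0.03 and 11.95 FPKM against 0.02 and 0 FPKM. Of the 5 lower in both, Lyz2 is given above, and Cd68 stood at 130 and 51.6 FPKM against 150 FPKM in both IL-33 libraries. Ear2 stood at 0.16 and 33.9 FPKM against 54.5 and 54.4 FPKM. Adgre1 was at 0.06 and 0.04 FPKM against 24.2 and 23.6 FPKM, and Fabp4 at 0.03 and 0.01 FPKM against 7.43 and 6.64 FPKM. Of the 4 and of the 5, 2 each passed the filter only through the group where they are high. Of 12 neutrophil markers, 3 were tested and all 3 were lower in both Ang II libraries, beside 33.5% of all genes tested, with sums of 63.9 and 40.3 FPKM against 210 and 203 FPKM. Mpo and Elane were listed at 0 throughout, and S100a8 stood at 34.2 and 18.9 FPKM with IL-33 plus Ang II, against 163 and 157 FPKM with IL-33, and S100a9 at 24.2 and 16.9 FPKM against 42.0 and 40.5 FPKM.

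Of 10 B cell markers, 2 were tested and both overlapped, with sums of 93.6 and 3.39 FPKM with IL-33 plus Ang II, against 21.2 and 18.7 FPKM with IL-33. Blnk was listed at 0 throughout, Cd79b stood at 50.5 and 0.28 FPKM against 14.6 and 11.9 FPKM, and Ighm at 41.0 and 1.18 FPKM against 3.45 and 3.96 FPKM. Of 12 T cell markers, 10 were tested and all 10 were lower in both Ang II libraries, beside 33.5% of all genes tested and with 4 of them past the filter only through the IL-33 libraries, with sums of 966 and 469 FPKM against 1331 FPKM in both IL-33 libraries. The T cell receptor genes Trbc2 (541 and 211 FPKM against 710 and 717 FPKM) and Trbc1 (267 and 220 FPKM against 314 and 306 FPKM) led that list and can share reads as near-identical copies. Whether such cells had a part in the levels of the subunit genes was not tested.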

How the data were processed

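RNA-seq was made from lung ILC2s with IL-33 plus Ang II or IL-33, 2 libraries each, by SMARTer cDNA synthesis, PCR amplification and paired sequencing per the labels' protocols, with no molecular identifiers named. The authors deposited FPKM per gene with 2 decimals, per the file headers. The submitters' processing notes name mm10, HISAT, StringTie and edgeR, without version or role. FPKM are not counts, so no count model was used. The depth was estimated from how often low genes were listed at 0 in 1 library of a pair, with FPKM times mean transcript length. It came to 16120000 fragments for the Ang II pair and 22600000 for the IL-33 pair, which assumes that whole fragments were counted. The estimate also takes each such 0 as sampling between 2 like libraries. The spread of the Ang II pair was 16.8 times the counting noise, so its figure cannot be read as a depth. The spread of a pair (a median absolute scaled difference, for genes between 1 and 32 FPKM times kilobases) was set against the counting noise at the IL-33 depth; by root mean square, which outlying genes raise, it was 15.4 times that noise for the Ang II pair and 2.20 times for the IL-33 pair.

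Genes averaging 1 FPKM or more over the 3 columns (2 Ang II libraries and the IL-33 mean) were tested on log2(FPKM + 1) with limma 3.58.1 (R 4.3.3), two-sided, with a mean-variance trend and Benjamini-Hochberg adjustment at 0.05. A fold change on this scale understates the change of low genes. On simulated data the fit returned the fold changes put in, but a larger share of its adjusted calls was false than the threshold sets. Coordinates are from GENCODE M21, the same assembly as mm10, with 55141 of 55401 identifiers found. Promoters are from RefSeq, and 5 of the 8 members had an entry. The members and lists were chosen with earlier results of these data known, so no list was tested. A gene of the list of other oxidase genes is not reported here. The text names all members and the remaining oxidase genes, the 4 most abundant genes of each pathway list, the 2 most abundant of each marker list, and the 3 genes nearest to a tested NOX2 subunit. Any other marker or pathway gene was named after its values were seen. Other scalings, filters and pseudocounts, left-out libraries and counting the IL-33 libraries as replicates were tried as alternatives.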

Additional observations from a re-analysis of the deposited data

How the results depend on the processing

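The log2 fold change of Ncf4 lay between 1.93 and 2.08 under all 12 alternatives and that of Cyba between -0.38 and -0.14, and of these settings only counting the IL-33 libraries as 2 replicates took Ncf4 past the adjusted threshold (adjusted p = 0.0082 by limma, against a range up to 0.310 elsewhere). That setting called 1547 genes against 0. With a replicate block as well it called 0 genes, and the adjusted p of Ncf4 was 0.104 by limma; deviations of same-numbered libraries correlated at -0.02, so the number is not known to pair them. At an unadjusted p under 0.05, the 257 higher and 996 lower genes became 984 and 1598 with both IL-33 libraries as replicates, 618 higher with the block, 2341 lower with no filter on low values and 330 lower where only genes averaging 5 FPKM or more were kept. Leaving out 1 library at a time gave 1 to 2 members higher and 1 to 2 lower, a log2 fold change of -0.23 to 1.23 for Rac2 and of -0.0779 to 0.0353 for Rac1, which was 0.0490 with libraries scaled to the same FPKM sum. Over the same left-out libraries the log2 difference of the Rac2 to Rac1 ratio ranged from -0.26 to 1.31, that of Ncf1 to Cybb from -5.49 to 0.00321, that of Cyba to Cybb from -4.45 to -0.56 and that of Ncf4 to Cybb from -2.18 to 1.73, the last being 1.23 with a pseudocount of 0.1. With an Ang II library left out no test was possible, since no residual degree of freedom remained. The causes were not tested. Low level, and a depth that is not given, limit the reading of Cybb, Ncf1, Nox1 and Nox4, which lay at or below 0.33 FPKM in every library.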
